A study of Mus musculus with 3 samples.

Results

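The DNA replication machinery was followed in mouse embryoid bodies through 45 named genes, chosen by symbol from the parts of the replisome and its supply: 9 genes of origin licensing, 13 of the replicative helicase and its partners, 9 of the polymerases and primase, 11 of the clamp, clamp loader, single-strand binding protein and Okazaki fragment joining, and 3 of nucleotide supply. All 45 were on the array and all 45 passed the filter on dim probes, out of 32176 gene names and accessions on the array and 19815 tested. Gene expression was measured on 3 2-colour Agilent arrays. Each array carried RNA of a culture that lacked Hopx (Hopx-/-, called null) and of a culture with a single working allele (Hopx+/-, called heterozygous), both at day 8 of cardiac differentiation. The protein Hopx has a homeodomain and is known from the developing heart. By its title the series concerns Hopx in muscle formation and in commitment. Both genotypes were grown from embryonic stem cell lines that were derived from blastocysts with LIF and a MEK1 inhibitor, kept on inactivated feeder cells with LIF, aggregated in hanging drops, and plated in StemPro-34 medium with VEGF, bFGF, FGF10, ascorbic acid and Glutamax. Wild-type cultures were not analysed here, so the controls too lack a working Hopx allele. Nothing in the labels tells if replicates came from separate lines or separate differentiations, so the p-values cover only the spread among these arrays, which may be technical, and a difference between genotypes cannot be told apart from a difference between lines.

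Replication begins when the origin recognition complex marks origins in G1 and, with Cdc6 and Cdt1, loads the Mcm2 to Mcm7 ring onto DNA. In S phase Cdc45 and the GINS complex turn this ring into the active helicase, polymerase alpha with primase starts each strand, and polymerases delta and epsilon extend them behind the sliding clamp PCNA. Many of these genes are textbook targets of the E2F transcription factors, which Rb family proteins restrain, and their messages are abundant in cycling cells such as embryonic stem cells and scarce in cells that have left the cycle, such as maturing muscle.

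All signed values are log2 ratios of null over heterozygous with the dyes of replicate 3 turned, as in the authors' deposited value table. By the labels the null culture carried Cy5 each time, yet the ratios of replicate 3 as labelled ran opposite to the rest across probes (r = -0.903 to replicate 1, r = -0.902 to replicate 2), whereas replicate 1 and replicate 2 ran together (r = 0.939). Probes of an array are no independent replicates. Its direction is therefore not settled by the labels. Hopx itself had ratios of -2.98, -2.97 and -3.45 in replicates 1, 2 and 3 (mean -3.13, SE 0.11, limma adjusted p = 2.8e-07). No source used here says if its probes lie in the deleted part. Each p-value is from limma's moderated test of the ratio against 0, adjusted over all probes kept, and a gene was called at adjusted p under 0.05. Over all genes tested, 60.3% were called, with 5980 higher and 5967 lower in null cultures. Median centring in place of loess shifted the median of all genes by 0.23 and gave 8543 of 11551 calls higher. By the scanner software's own call, 61.9% to 72.9% of spots other than controls stood well above background, depending on array and channel, and having only 3 arrays limits the precision.

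Every one of the 45 replication genes had a mean ratio above 0, and 41 were called higher in null cultures (91.1%), against 30.2% of all genes tested. In bulk RNA, fewer cells of a type and less RNA per cell cannot be told apart. None was called lower, against 30.1% of all genes tested, and since no mean ratio was negative, none was lower at an unadjusted p under 0.05 either. The median ratio of the 45 was 0.72, 0.78 and 0.83 on replicates 1, 2 and 3, while the median of all genes tested was 0.0034 over the arrays. Most rises were moderate, with 10 of the 45 at least 2-fold, where 4.87% of all genes tested were called higher by as much. In 42 of the 45 the ratio was positive on all 3 arrays that measured it, or on both for Mcm2, whose spot on replicate 3 was an outlier and was left out. Over all genes tested, 76.2% had the same sign, in either direction, on all arrays. Comparing the channels across arrays, the 3 null signals lay above the 3 heterozygous signals for 37 of the 44 genes measured on all arrays, where 52.1% of all genes tested did not overlap in either direction. No probe used was saturated, and all 45 were well above background in both channels on all 3 arrays. With replicate 3 left out, which removes the array of unsettled direction, 40 of the 45 were called higher. With replicate 3 as labelled, limma called 0 genes of any kind (62 genes at an unadjusted p under 0.05), and the median of the 45 was 0.23.

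**Figure D1:**
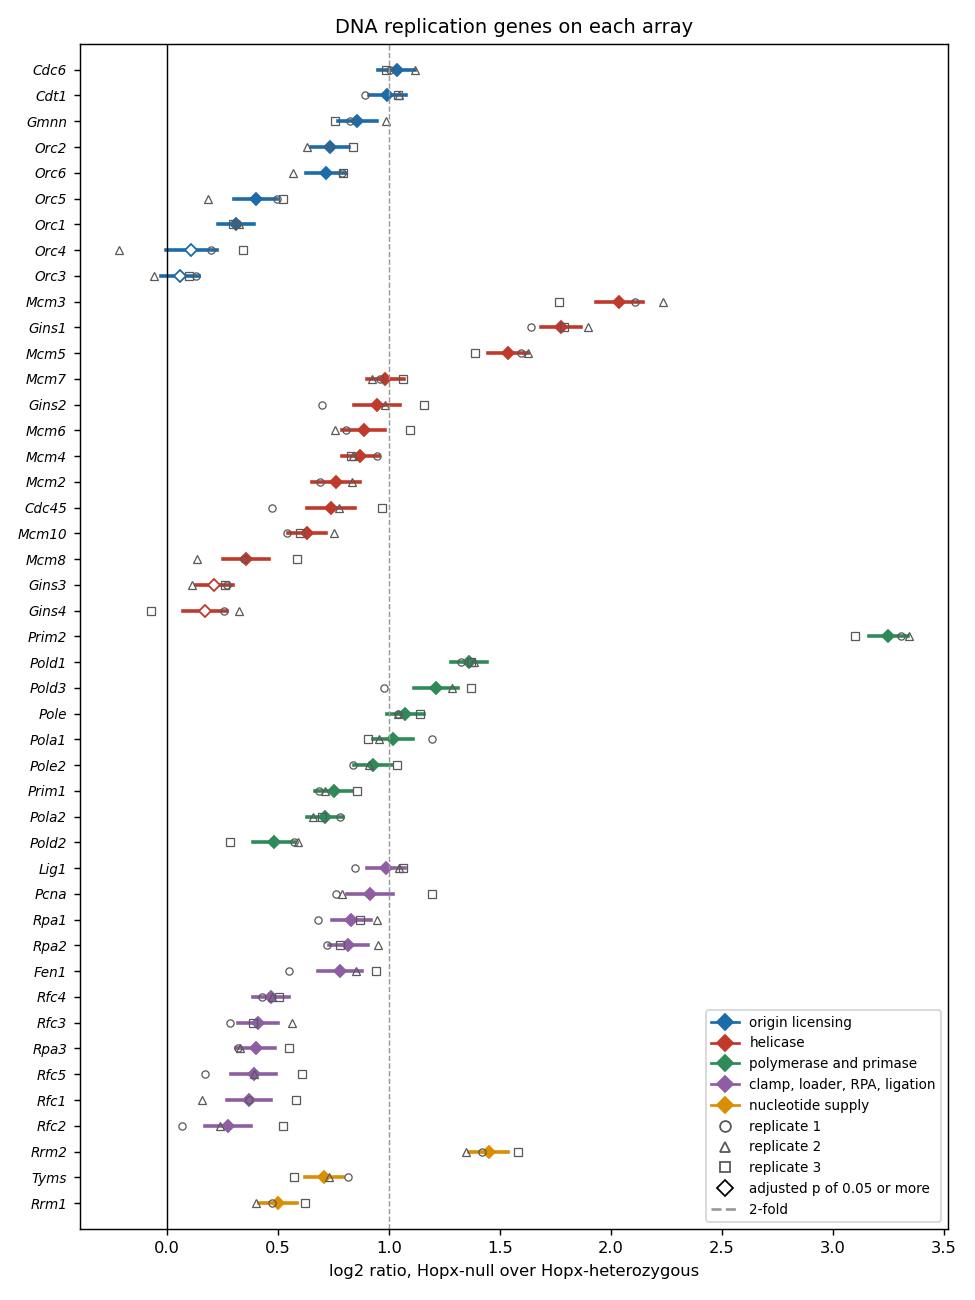
Log2 ratio of Hopx-null over Hopx-heterozygous cultures for 45 replication genes, grouped by role, with 1 open symbol for each array, a diamond for the mean and a bar of 1 moderated standard error on each side; open diamonds mark the 4 genes not called. Every diamond lies right of 0, Prim2 stands far right at 3.25, and Orc3, Orc4, Gins3 and Gins4 lie closest to 0.

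Promoters of 4 members are shown as examples that carry an E2F-like motif before their start sites and come from the licensing, helicase and polymerase groups. All 4 were called higher. Orc1, Orc3, Mcm7 and Gins3 of these groups also carry one there and are not shown, and of these Orc3 and Gins3 were not called. The sequences are RefSeq's on build GRCm38.p6, 250 bases up to the annotated start and 5′ to 3′ on the strand of the gene, with each E2F-like match in capitals. Mcm5 lies on the plus strand (chr8:75109259-75109508), Mcm6 on the minus strand (chr1:128359706-128359955), Pola1 on the minus strand (chrX:93632156-93632405) and Cdc6 on the plus strand (chr11:98907901-98908150).
Mcm5: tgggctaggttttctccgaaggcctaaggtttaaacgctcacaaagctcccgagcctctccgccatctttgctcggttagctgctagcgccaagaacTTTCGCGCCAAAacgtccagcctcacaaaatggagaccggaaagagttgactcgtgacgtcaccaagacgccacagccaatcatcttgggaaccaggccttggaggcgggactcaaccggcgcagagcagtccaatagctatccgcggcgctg
Mcm6: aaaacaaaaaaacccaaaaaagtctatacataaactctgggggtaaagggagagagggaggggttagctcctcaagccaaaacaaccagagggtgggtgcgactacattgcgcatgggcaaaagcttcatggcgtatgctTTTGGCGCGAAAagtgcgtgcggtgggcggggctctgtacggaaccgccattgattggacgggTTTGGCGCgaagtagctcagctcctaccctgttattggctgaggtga
Pola1: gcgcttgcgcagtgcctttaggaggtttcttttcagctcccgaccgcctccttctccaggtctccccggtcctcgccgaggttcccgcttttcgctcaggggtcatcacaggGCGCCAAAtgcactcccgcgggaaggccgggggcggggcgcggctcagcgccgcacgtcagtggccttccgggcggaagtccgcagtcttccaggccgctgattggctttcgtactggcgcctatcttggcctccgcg
Cdc6: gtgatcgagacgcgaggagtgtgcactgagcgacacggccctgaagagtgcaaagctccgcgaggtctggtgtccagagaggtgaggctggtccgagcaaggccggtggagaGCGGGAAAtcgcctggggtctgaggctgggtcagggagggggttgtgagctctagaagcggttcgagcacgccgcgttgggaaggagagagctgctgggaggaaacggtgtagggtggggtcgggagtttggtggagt
In Mcm5, and at the first match of Mcm6, matches on opposite strands overlap and their capitals form a single longer run, while Mcm6 holds a further separate match.

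The search took TTTCGCGC, TTTGGCGC or TTTCCCGC on both strands as an E2F-like match, in a window of 300 bases that runs to 50 bases after the start. Of the 37 members with an entry in the promoter table, 16 held a match (43.2%), against 573 of the 27025 genes in the table (2.12%). By role, the matches were in 4 of 8 licensing genes, 6 of 9 helicase genes, 4 of 7 polymerase and primase genes, 2 of 10 genes of the clamp and joining group and 0 of 3 genes of nucleotide supply. The member promoters were also richer in G and C, at a median of 61.3%, than all promoters at 52.7%. The letters CCAAT, an NF-Y motif, were in 24 of the 37 members (64.9%) and in 41.1% of all genes. A different motif, TTTGAA, which is a form of the CHR element known from promoters of mitotic genes, was in 5 of the 37 members (13.5%) and in 20.2% of all genes. In a list of mitotic genes TTTGAA was in 18 of 25 (72.0%) and CCAAT in 19 of 25 (76.0%). The E2F-like letters were in 1 of these 25 (4.0%, against 2.12% of all genes). They were also in 6 of 12 genes of an E2F and Rb list (50.0%). Lists of chromatin assembly and of origin firing and the fork had them in 4 of 11 (36.4%) and 6 of 22 (27.3%). Further nucleotide supply genes and polymerases outside replication had them in 0 of 14 and 0 of 8. Entries for Gmnn, Mcm4, Gins1, Gins2, Gins4, Rfc2, Prim2 and Pole were not used here.

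Members with and without a match both rose: 14 of 16 members with the E2F-like letters were called higher (median 0.98), and 20 of 21 without them (median 0.71). Over all tested genes with a promoter entry, 45.2% of the 440 with the letters were called higher and 19.1% lower, against 31.7% and 30.9% of the 11364 without them. With the members left out, 43.6% of the remaining 424 were called higher. A match describes letters in this window and is no evidence of binding.

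**Figure D2:**
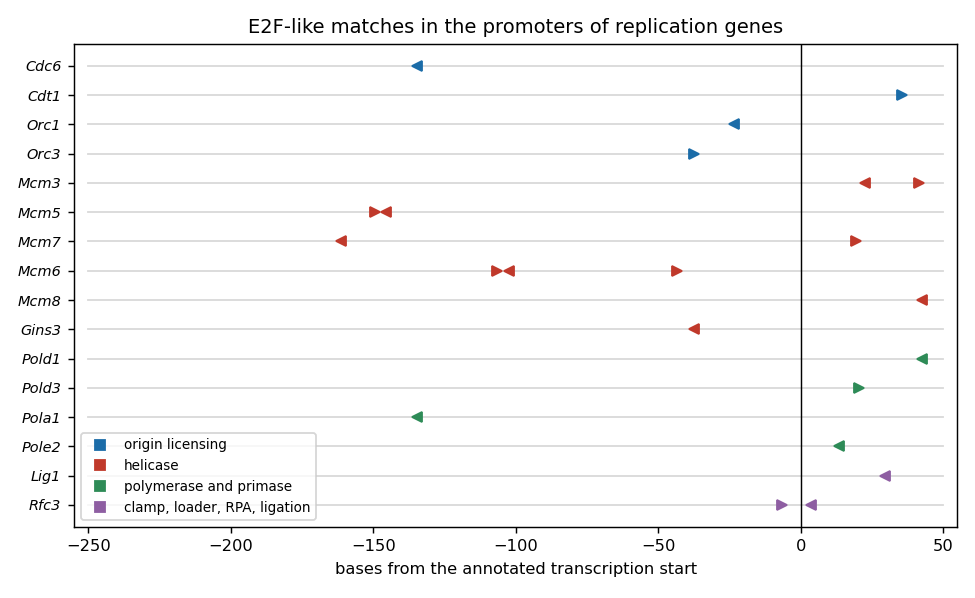
Positions of the 22 E2F-like matches in the promoters of 16 replication genes, in bases from the annotated transcription start, with right-pointing marks for the strand of the gene, left-pointing marks for the opposite strand and colours by role. The matches lie between -165 and 46, and 12 of them begin before the start.

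Of the 9 origin licensing genes 7 rose, with the loading factors Cdc6 and Cdt1 at the top and subunits of the origin recognition complex at the bottom. Cdc6, the ATPase that helps to load the helicase, had channel signals of 8.64, 8.19 and 8.17 (log2) in null cultures of replicates 1, 2 and 3, against 7.64, 7.07 and 7.19 in heterozygous cultures. Its ratios were 1.00, 1.12 and 0.99, for a mean of 1.03 (SE 0.08, n = 3 arrays, limma adjusted p = 1.4e-05), while its other, dimmer probe gave 0.32. Cdt1, the partner of Cdc6 in loading, had ratios of 0.89, 1.04 and 1.04 (mean 0.99, SE 0.08, limma adjusted p = 1.9e-05). Gmnn encodes geminin, the inhibitor of Cdt1, and rose as well, with ratios of 0.82, 0.99 and 0.76 (mean 0.86, SE 0.09). Its signals in null cultures, 9.26, 10.24 and 10.34, overlapped those in heterozygous cultures, 8.44, 9.25 and 9.58, although the null signal was the higher on each array.

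The origin recognition subunits differed among themselves. Orc2 and Orc6 rose by 0.73 (SE 0.09) and 0.71 (SE 0.09), and Orc5 and Orc1 by 0.40 (SE 0.10) and 0.31 (SE 0.08). Orc3 had ratios of 0.13, -0.06 and 0.10 (limma adjusted p = 0.60) and Orc4 of 0.20, -0.22 and 0.34 (limma adjusted p = 0.44), so that neither passed and replicate 2 had the opposite sign for both. A dimmer probe of Orc4 stood at -0.15 and one of Orc3 at 0.05, and neither passed. Orc1, the subunit whose protein level varies over the cell cycle in human cells, was no longer called when replicate 2 was left out (limma adjusted p = 0.0566), although its 3 arrays lay close together at 0.31, 0.32 and 0.30.

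Of the 13 helicase genes, 11 rose, and the ring subunits rose by unequal amounts. Mcm3 rose most, with signals of 13.79, 13.91 and 14.04 in null cultures against 11.68, 11.68 and 12.27 in heterozygous cultures, ratios of 2.11, 2.23 and 1.77, and a mean of 2.04 (SE 0.11, limma adjusted p = 1.5e-06), a 4.10-fold higher signal. Mcm5 followed with signals of 14.43, 14.47 and 14.39 in null cultures against 12.83, 12.85 and 13.00 in heterozygous cultures (mean ratio 1.54, SE 0.09, limma adjusted p = 2.5e-06). The other ring subunits formed a narrow band: Mcm7 rose by 0.98 (SE 0.08), Mcm6 by 0.88 (SE 0.10), Mcm4 by 0.87 (SE 0.08) and Mcm2, on 2 arrays, by 0.76 (SE 0.11). On each of the 2 arrays that measured both, the ratio of Mcm3 exceeded that of Mcm2, by 1.42 and 1.40. Each of these genes had a single probe.

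GINS, the 4-subunit partner of the ring, was split. Gins1 had ratios of 1.64, 1.90 and 1.79 (mean 1.77, SE 0.09, limma adjusted p = 1.2e-06) and Gins2 of 0.70, 0.98 and 1.16 (mean 0.95, SE 0.10). Gins3 had 0.27, 0.11 and 0.26 (limma adjusted p = 0.056) and Gins4 had 0.25, 0.32 and -0.07 (limma adjusted p = 0.18), and neither passed, although Gins4 was called when replicate 3 was left out (0.29, limma adjusted p = 0.0206). The ratio of Gins1 exceeded that of Gins4 on all 3 arrays, by 1.38, 1.57 and 1.86. Cdc45, the third part of the active helicase, rose by 0.74 (SE 0.11), and Mcm10, which acts at helicase activation, by 0.63 (SE 0.09). Mcm8, a relative of the ring known for its part in recombination, rose by 0.35 (SE 0.10) by its brighter probe and by 0.62 (SE 0.08) by its dimmer one, and the brighter probe was not called when replicate 3 was left out (limma adjusted p = 0.0556).

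All 9 polymerase and primase genes rose, and theirs was the highest median of the 5 role groups on each array, at 0.98, 0.96 and 1.04. On replicate 3 the helicase genes stood at 1.01, so this place in the order was narrow there. Prim2, the large regulatory subunit of primase, stood apart from every other member, by a single probe. It had signals of 11.37, 11.20 and 11.20 in null cultures and 8.06, 7.86 and 8.10 in heterozygous cultures, giving ratios of 3.31, 3.34 and 3.10. The mean ratio was 3.25 (SE 0.09, limma adjusted p = 1.3e-07), a 9.51-fold higher signal, with the arrays close together. Prim1, the catalytic subunit with which Prim2 forms a dimer, had ratios of 0.69, 0.71 and 0.85 (mean 0.75, SE 0.08). The ratio of Prim2 exceeded that of Prim1 by 2.62, 2.63 and 2.24, a mean of 2.50 ± 0.22 (SD, n = 3). In the authors' deposited table Prim2 had values of 2.90, 3.04 and 2.61.

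The other members were subunits of polymerases alpha, delta and epsilon. Pold1, the catalytic subunit of polymerase delta, had ratios of 1.33, 1.38 and 1.37 (mean 1.36, SE 0.08, limma adjusted p = 3.0e-06), and Pold3, an accessory subunit, had 0.98, 1.28 and 1.37 (mean 1.21, SE 0.10). Pold2, the subunit that bridges them, rose less, with ratios of 0.57, 0.59 and 0.28 (mean 0.48, SE 0.09, limma adjusted p = 0.0022). Pole and Pole2 of polymerase epsilon rose by 1.07 (SE 0.08) and 0.93 (SE 0.09). Pola1, the catalytic subunit of polymerase alpha, had 1.19, 0.96 and 0.90 (mean 1.02, SE 0.09), and Pola2 rose by 0.71 (SE 0.08). Signals of Pole were 12.09, 12.05 and 12.11 in null cultures, against 11.05, 11.01 and 10.98 in heterozygous cultures, which leaves a gap several times the spread within either genotype.

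**Figure D3:**
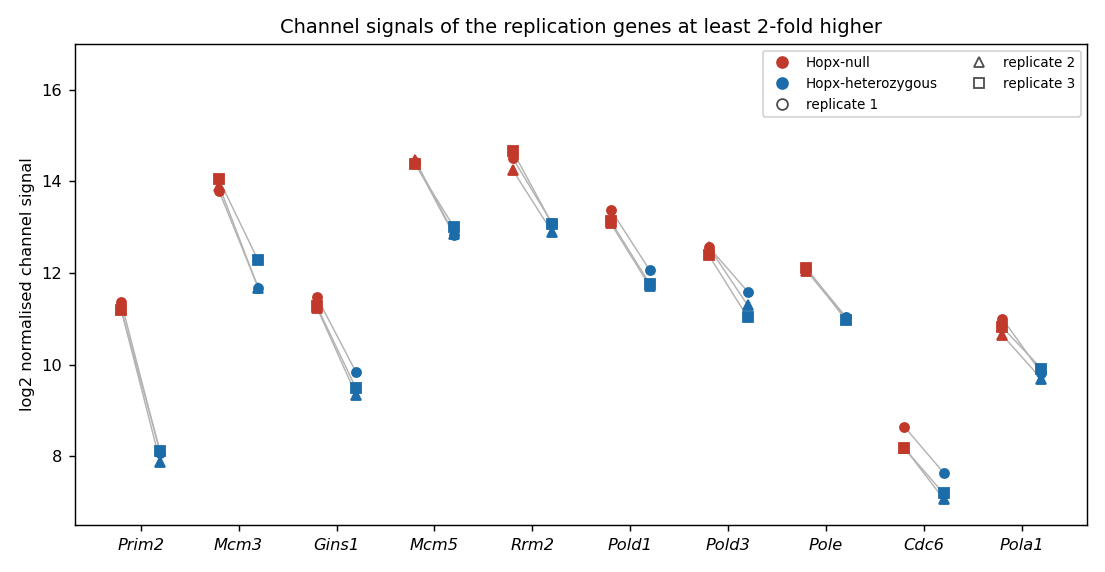
Normalised log2 channel signal of the 10 replication genes at least 2-fold higher, with Hopx-null cultures at the left and Hopx-heterozygous cultures at the right of each pair, 1 symbol shape for each replicate and a line joining the channels of an array. The null signals lie above the heterozygous signals for each of the 10 genes, with the steepest lines for Prim2; heights of different genes are not comparable because their probes differ.

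All 11 genes of the clamp, its loader, RPA and fragment joining rose, and none reached 2-fold. Lig1, the ligase that seals Okazaki fragments, had ratios of 0.85, 1.04 and 1.06 (mean 0.99, SE 0.09, limma adjusted p = 2.5e-05). Pcna, the sliding clamp, had 0.76, 0.79 and 1.19 (mean 0.91, SE 0.11), with replicate 3 the highest. Rpa1, the large subunit of the single-strand binding protein, had 0.68, 0.94 and 0.87 (mean 0.83, SE 0.09). Its partner Rpa2 rose by 0.82 (SE 0.09) and Rpa3 by 0.40 (SE 0.09). Fen1, the flap nuclease, rose by 0.78 (SE 0.10).

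The 5 clamp loader genes, Rfc1 to Rfc5, rose by 0.27 to 0.47 by their brightest probes, with Rfc4 at 0.47 (SE 0.08, and 0.66 by a dimmer probe) and Rfc2 at 0.27 (SE 0.10, limma adjusted p = 0.046). Rfc2 had ratios of 0.07, 0.24 and 0.52 and was not called when replicate 2 (limma adjusted p = 0.107) or replicate 3 (limma adjusted p = 0.204) was left out. The 11 genes together had the lowest of the 5 role medians on each array, at 0.43, 0.56 and 0.61, but on replicate 2 the licensing genes stood at 0.57 and on replicate 3 the nucleotide genes at 0.62, so this place in the order is narrow.

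In nucleotide supply, the subunits of ribonucleotide reductase, which makes deoxyribonucleotides, rose by different amounts. Rrm2, the small subunit that is made in S phase, had ratios of 1.42, 1.35 and 1.58 (mean 1.45, SE 0.09, limma adjusted p = 3.1e-06). Rrm1, the large subunit, had 0.47, 0.40 and 0.62 (mean 0.50, SE 0.09), and the difference between them was 0.95, 0.95 and 0.96 on the 3 arrays. Tyms, thymidylate synthase, had 0.82, 0.73 and 0.57 (mean 0.71, SE 0.09).

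Bright and dim probes gave similar counts. Of the 26 members with a mean log2 intensity above 11, 23 were called higher (median 0.80), and of the 19 at or below it, 18 were (median 0.74). Among all genes tested, 30.8% of those above 11 were called higher and 29.9% of the rest.

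Other genes of replication, taken from 4 lists outside the 45, moved the same way: of 68 measured of 72, 55 rose, 2 fell and 11 did not pass. In origin firing and the fork, 22 of 27 rose and 1 fell (median 0.64), with Dna2, a nuclease and helicase, at 1.21 (SE 0.11) and Recql4, a helicase of initiation, at 1.14 (SE 0.08). The one that fell was Pold4, the smallest subunit of polymerase delta, at -1.13 (SE 0.10, limma adjusted p = 2.4e-05), opposite to Pold1, Pold2 and Pold3. The small subunits of polymerase epsilon, Pole3 at 0.08 (SE 0.09, limma adjusted p = 0.47) and Pole4 at 0.06 (SE 0.09, limma adjusted p = 0.60), did not pass. Of 15 further genes of nucleotide supply, 12 rose and 0 fell by their brightest probes (median 0.65), led by Dut, the dUTPase, at 1.66 (SE 0.08), Gart, an enzyme of purine synthesis, at 1.42 (SE 0.10) and Ctps, CTP synthase, at 0.97 (SE 0.08). A dimmer probe of Samhd1, of the same list, was called lower at -0.57 (SE 0.09), while its brighter probe stood at -0.01 and did not pass. By the median over a gene's probes, 12 of this list were higher and 1 lower. Of 11 genes of chromatin assembly and maintenance at the fork, 10 rose (median 0.91), among them the histone chaperones Asf1b at 1.26 (SE 0.08) and Nasp at 1.22 (SE 0.09) and Uhrf1, which brings the maintenance methyltransferase to new DNA, at 1.19 (SE 0.09), although another probe of Uhrf1 stood at 0.26 and did not pass. Of 15 genes of the E2F and Rb families and their cyclins, 11 rose (median 0.57), led by Ccne1, cyclin E1, at 1.53 (SE 0.09), Tfdp1, the partner of E2F factors, at 1.41 (SE 0.09) and E2f2 at 1.26 (SE 0.10), and the only one that fell was Rb1, the retinoblastoma protein, at -0.94 (SE 0.10). Taking the median over a gene's probes lowered the median of these 15 to 0.36, with 10 higher. Dimmer probes of E2f7, Rbl1 and Tfdp2 stood at -0.07, -0.07 and -0.004 and did not pass, and a dimmer probe of E2f3 was called lower at -0.29 (SE 0.09), against 0.58 (SE 0.09) by the brighter one.

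Mitotic genes had a lower median: of 29 measured, 21 rose, none fell and none reached 2-fold (median 0.38, against 0.76 for the 45 replication genes). A dimmer probe of Nuf2 was called lower at -0.44 (SE 0.09), against 0.66 (SE 0.09) by the brighter one, and a dimmer probe of Mad2l1 stood at -0.24 and did not pass. By the median over a gene's probes, 21 mitotic genes were higher and 0 lower. Plk1, a mitotic kinase, rose by 0.91 (SE 0.09), Kif11, a spindle kinesin, by 0.89 (SE 0.13) and Espl1, which encodes separase, by 0.89 (SE 0.10). Their number depended on the values used, with 12 called in the authors' deposited values (median 0.32) and 27 under median centring (median 0.77, against 1.15 for the 45 replication genes). The difference between the lists was not tested. Polymerases outside replication gave other counts: of 12 for repair, lesion bypass or mitochondria, 4 fell, 1 rose and 7 missed the threshold. Their median was -0.21, and under median centring it was -0.03, with 3 higher and 3 lower. With the scanner software's processed signals it was -0.32, with 0 higher and 6 lower. By the median over a gene's probes, 2 were higher and 5 lower. A dimmer probe of Polk was called lower at -0.91 (SE 0.09), while its brighter probe stood at -0.27 and did not pass. Polg, the mitochondrial polymerase, stood at -0.94 (SE 0.10), Poli, a bypass polymerase, at -0.94 (SE 0.09) and Polg2, the accessory subunit of Polg, at -0.77 (SE 0.10), although another probe of Polg2 stood at 0.06.

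**Figure D4:**
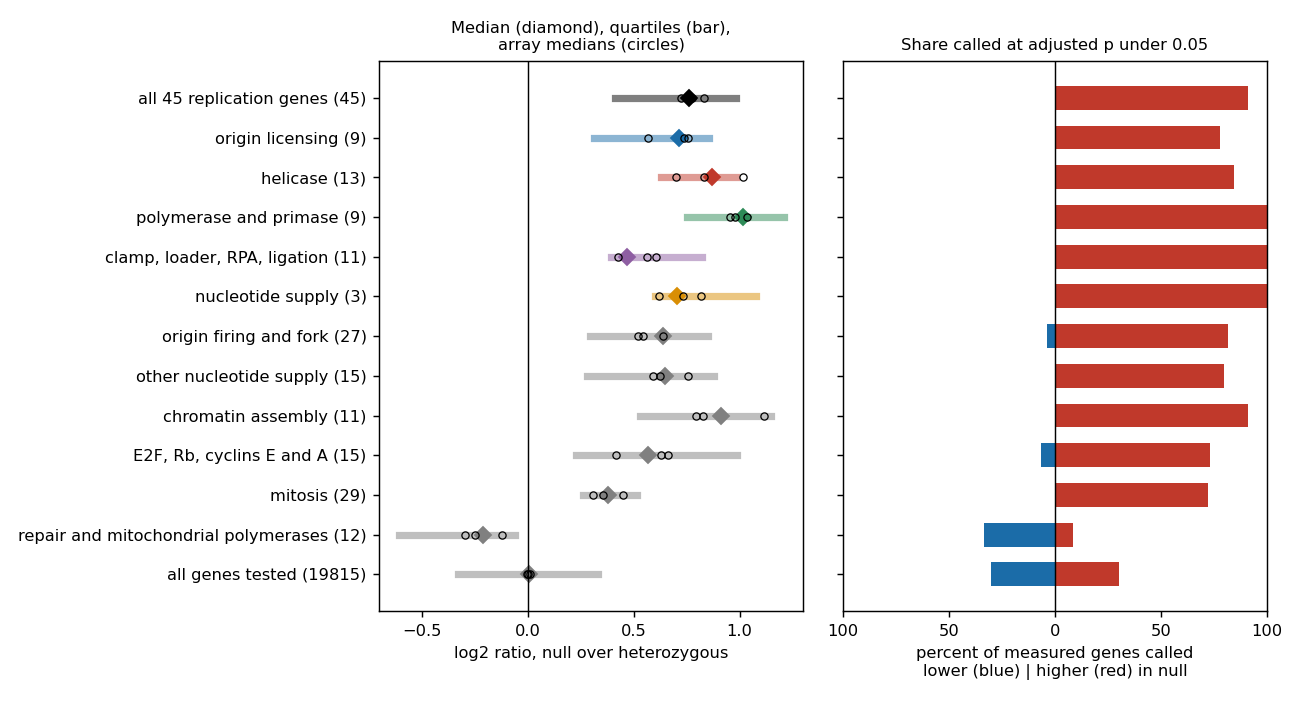
Left, median log2 ratio of null over heterozygous for each gene list (diamond), its quartiles (bar) and its median on each of the 3 arrays (circles), with the number of measured genes in brackets; right, the percentage of each list called higher (red) or lower (blue) in null cultures. The 5 replication groups lie between 0.47 and 1.02, mitosis at 0.38, polymerases outside replication at -0.21 and all genes tested at 0.0034.

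Markers of cell types changed as well, in both directions. Of 10 pluripotency markers, 8 rose and 1 fell, with summed signals of 44389 to 54171 in null cultures and 31618 to 39659 in heterozygous cultures. Most of these sums came from Dppa5a, at 0.43 (SE 0.11), and Lin28a, at 0.06 (SE 0.10), which was not called. Nanog, a core pluripotency factor, rose by 2.01 (SE 0.14) by its brightest probe. Another of its probes was called higher as well, while its dimmest probe was called lower at -0.34 (SE 0.09, limma adjusted p = 0.0088). The one marker that fell was Zfp42, which encodes Rex1, at -1.09 (SE 0.08). All 12 cardiomyocyte markers fell, with summed signals of 25221 to 37427 over the 11 measured on every array in null cultures and 250915 to 322305 in heterozygous cultures, and Myh6, the alpha cardiac myosin heavy chain, stood lowest at -5.31 (SE 0.14). All 10 visceral endoderm markers fell, with summed signals of 17145 to 23198 in null cultures and 123422 to 150656 in heterozygous cultures. All 10 erythroid markers rose, with 139438 to 169759 in null cultures and 36682 to 63844 in heterozygous cultures. Most of these sums came from the embryonic globins Hba-x, Hbb-bh1 and Hbb-y. The probes used for Hbb-bh1 and Hbb-y were each saturated on 1 array, and a dimmer probe of Hbb-y on 2 arrays. The other 7 erythroid markers summed to 6933 to 13195 in null cultures and 2459 to 2928 in heterozygous cultures. Of 10 fibroblast markers, which feeder cells also express, 7 rose and 2 fell, with 50879 to 70807 over 8 genes in null cultures and 26480 to 35576 in heterozygous cultures. No marker of the 5 lists was below background in a genotype on all 3 arrays. Their part in the rise of the replication genes was not tested.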

How the data were processed

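RNA of Hopx-null and Hopx-heterozygous embryoid bodies was measured on 3 2-colour Agilent arrays. The deposited scanner files hold spot intensity values of both channels, written, per the file headers, with Agilent's Feature Extraction software 11.5.1.1 (the submitters' processing notes name 8.5.1.1), on a design of build mm9. Their log10 ratio column, deposited as the scanner software made it, was not used. The authors' deposited value table, of unstated scale and centring, was read as log2 ratios: against the scanner ratios of bright probes its slopes were 0.943, 0.948 and -0.944, and its column medians were -0.10, -0.11 and 0.07. Slide and scan were shared by the arrays (1 slide, 1 scan) and give no batch.

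With limma 3.58.1 in R 4.3.3, median foreground and background signals (the files hold no means) were corrected by normexp (offset 50) and normalized by loess, with control and outlier spots at weight 0 and left out. With replicate 3 turned, the dye orientations are unequal in number, and a dye effect remains in part. Probes well above background on all 3 arrays in either genotype were kept (24575 of 39429), lmFit and eBayes tested every ratio against 0 (two-sided, Benjamini-Hochberg over probes kept), and a gene took its brightest probe. SEs are moderated. Channel signals were taken after loess and Aquantile. Accessions were named through a RefSeq table (GRCm38.p6), which named 28025 probes (71.1%). Of the 45 members, 39 had 1 probe and 6 had 2 probes. The fit was also run on simulated data with independent noise and few changed probes. These settings differ from the data, so that run checks the code and not the calls made here.

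Ratios within an array pair the 2 cultures, so no further block was needed. The members and lists were chosen with earlier results of these data known. Every member could be named, with array values for the 3 of each role with the largest change and all of at least 2-fold, and the other lists give up to 3 called genes, or 2 for marker lists. Rb1, Zfp42, Pole3, Pole4, the dimmer E2F and Rb family probes and the array values of Orc1, Orc3, Orc4, Gins2, Gins3, Gins4, Prim1, Pold2 and Rfc2 fall outside this rule and were chosen after their values were seen. The same holds for Dppa5a, Lin28a, the dimmer probes of Nanog and the probes of Samhd1, Nuf2, Mad2l1 and Polk. The closing section gives the alternatives.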

Additional observations from a re-analysis of the deposited data

How the results depend on the processing

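No replication gene was called lower under any alternative. The median ratio of the 45 was 0.65 in the authors' value table, 0.92 when the processed signals of the scanner software were used, and 1.15 under median centring, which moved all genes by 0.23. An ordinary t statistic, which shares no spread between probes, called 3995 genes and 24 of the 45 higher, and asking for at least 2-fold left 2160 genes and 10 members, by construction. With replicate 3 as labelled, 0 genes and 0 members were called, and the median of the 45 was 0.23. Of the members called in the main fit, Mcm8, Rfc1, Rfc2 and Rfc5 changed sign (-0.034, -0.018, -0.072 and -0.014). Orc3 and Orc4, which were not called in the main fit, changed sign too. These changes follow from an array of opposite sign. Leaving out each replicate gave 9836 to 11878 genes called, 39 to 41 members higher, 0 lower and medians of 0.76 to 0.83. With the channels as separate samples, 41 members were called with a replicate block, as in the within-array fit, and 35 with no replicate block. On the authors' values, 34 were called, with Orc1, Orc5, Mcm8, Rfc2, Rfc3, Rfc4 and Rfc5 losing their call. Median centring called 44. Where no cause is given, the cause was not tested. Dim probes limit what other genes can show, and the 45 probes used were all above background.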

Other observations

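Prim2 was singled out after its values were seen, and its neighbours on chromosome 1 were then read from the same fit. Of the 3 tested genes on either side, Rab23 and Adgrb3 were higher at 0.48 (SE 0.08) and 0.49 (SE 0.11), Bag2 was lower at -0.27 (SE 0.08), and Phf3, Ptp4a1 and 1700001G17Rik did not pass (-0.16, -0.04 and 0.01), against 3.25 for Prim2 itself.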
